A study of Mus musculus with 14 samples.

Results

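The proteasome is the protease of the cytosol and nucleus that degrades proteins tagged with ubiquitin, and its subunits are encoded by gene families whose mouse symbols begin with Psm. The members described here are the genes of the deposited count table whose symbol starts with Psma, Psmb, Psmc, Psmd, Psme, Psmf or Psmg followed by a digit, without Psmb8 and Psmb9. There were 47 such genes among the 14084 of the table, and all 47 passed the filter on low counts. The 20S core class (Psma and Psmb symbols) had 16 of them, the regulatory class (Psmc, Psmd and Psme symbols) had 24, and 7 belonged to neither. The counts came from RNA of microglia, the resident macrophages of the brain, isolated by FACS from the cerebral cortex of C57BL/6 mice aged 8 to 10 weeks by the labels. This same age is given for all 7 groups. Any difference in age at sampling between times cannot be told apart from time after stroke. Mice sampled at days 1, 3, 7, 21, 60 and 90 after ischemic stroke had the distal middle cerebral artery tied off permanently and both common carotid arteries closed for 7 min. Sham mice had lesions of the skull surface and neither vessel treatment. Each of the 7 groups had 2 libraries, 14 in all. The sources used here do not give the sort markers, the day on which sham mice were sampled, the sex or any pooling of animals.

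The core is a barrel of stacked rings, with alpha subunits (Psma genes) forming the outer rings and gate, and beta subunits (Psmb genes) forming the inner rings that hold the catalytic sites. The regulatory particle recognises and unfolds substrates: its base holds a ring of ATPases (Psmc genes) and its lid and remaining base subunits carry Psmd symbols, while Psme genes encode alternative activators that open the gate without ATP. Psmd5, Psmd9 and Psmd10 encode chaperones of base assembly and are counted in the regulatory class by their symbols. In cells exposed to interferon gamma, and constitutively in many immune cells, 3 inducible catalytic subunits encoded by Psmb8, Psmb9 and Psmb10 replace the constitutive ones encoded by Psmb5, Psmb6 and Psmb7, which makes the immunoproteasome.

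Total counts per library ran between 15254983 and 28758420 in replicates 1 and between 100625099 and 191692779 in replicates 2, a depth ratio within groups of 6.60 to 9.19. The labels do not tie the libraries to separate animals. The p-values therefore measure only how far these samples spread, and that spread may be technical. The sham libraries stood apart in their cell type markers: 14 of 15 listed neutrophil markers were in the table, and their summed level was 387 to 8045 CPM in the stroke libraries and 22521 to 33317 CPM in the sham libraries. The sum of 12 microglia markers was 2649 to 28545 CPM in the stroke libraries and 1535 to 2675 CPM in the sham libraries, and Tmem119, a defining microglia marker, was 41.6 to 350.2 CPM in the stroke libraries and 16.9 and 2.48 CPM in the sham libraries. The monocyte marker sum was 723 to 11544 CPM in the stroke libraries and 8457 to 14711 CPM in the sham libraries, and the erythroid sum over the 3 markers in the table was 0 to 4.43 CPM in the stroke libraries and 200.4 to 207 CPM in the sham libraries. Every comparison with sham below therefore also compares libraries with different marker levels, whose part in the results was not tested. In such bulk samples fewer cells of a type and less RNA per cell cannot be told apart.

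Core and regulatory genes moved together across libraries, and replicates of a group often lay as far apart as groups did. Levels are given in CPM, counts scaled to a common library size by TMM, with the value of replicate 1 before that of replicate 2 throughout. The mean log2 CPM of the 16 core genes was 5.45 and 6.58 in the sham libraries, 7.29 and 6.42 at day 1, 7.20 and 6.23 at day 3, 5.73 and 6.35 at day 7, 5.32 and 5.56 at day 21, 6.35 and 7.37 at day 60 and 5.50 and 6.02 at day 90. The second day 60 library was the highest and the first day 21 library the lowest, and 8 of the 12 stroke libraries lay between the sham libraries. The mean log2 CPM of the 24 regulatory genes was 5.86 and 6.83 in the sham libraries, 7.29 and 7.04 at day 1, 7.13 and 6.90 at day 3, 6.55 and 7.08 at day 7, 6.05 and 6.28 at day 21, 6.69 and 7.40 at day 60 and 6.30 and 6.78 at day 90. The pair of class means had r = 0.919 over the 14 libraries, which share their scaling and their counts between both measures. All 47 members together took up 0.305% to 0.782% of the counts of a library.

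The class means moved with a property of the libraries that is not particular to the proteasome. Transcripts of the core class had a median length of 1174 nt and those of the regulatory class one of 1710.5 nt. Short genes as a whole (1886 genes of at most 1875.75 nt) differed from long genes (1886 genes of at least 4327.25 nt) by a library-specific amount of -1.08 to 1.20. This amount is the difference between the medians of log2 CPM in these sets, each gene centred on its mean over the libraries. Over the 14 libraries this imbalance had r = 0.951 with the core mean, r = 0.883 with the regulatory mean and r = 0.77 with the difference between them. When a smooth library-specific shift by length, estimated on genes that are no members, was removed, an alternative added after the data were seen, the mean log2 difference between replicates was 0.494 for the core class, against 0.848 without the shift, and 0.421 for the regulatory class, against 0.594 without it. Over all genes with a length it was 1.00 with the shift and 1.05 without. The source of the imbalance was not tested.

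Against sham, the median core gene was higher at days 1, 3 and 60 and lower at days 7, 21 and 90, but for 4 of the 6 times the sign was not the same in both replicate numbers. The median log2 fold change of the 16 core genes was 0.78, 0.59, -0.10, -0.74, 0.87 and -0.36 at days 1, 3, 7, 21, 60 and 90. Over all 13861 genes tested the median lay between 0.04 and 0.15. Within the replicates 1 alone the core medians were 1.88, 1.65, 0.34, -0.02, 0.90 and 0.07 at these times. Within the replicates 2 alone they were -0.38, -0.35, -0.40, -1.30, 0.79 and -0.63. Day 60 was higher and day 21 lower in both, and at days 1, 3, 7 and 90 the replicate numbers gave opposite signs. The core genes with the same sign in both replicate numbers were 6, 5, 10, 10, 15 and 9 of 16 in order of time, against 57.5%, 64.3%, 82.3%, 71.5%, 80.3% and 80.2% of all genes.

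The regulatory class had medians of 0.94, 0.75, 0.58, -0.35, 0.77 and 0.15 at the same times. Within the replicates 1 these were 1.54, 1.42, 0.78, 0.28, 0.89 and 0.51, and within the replicates 2 they were 0.13, 0.02, 0.26, -0.61, 0.69 and -0.05. The median regulatory gene was thus above sham in both replicate numbers at days 1, 3, 7 and 60, though by 0.13 or less in the replicates 2 of days 1 and 3. Leaving out the first sham library put the day 60 medians at 0.40 for the core and 0.32 for the regulatory class, and leaving out the second put them at 1.56 and 1.37; without the second sham library the core medians at days 7, 21 and 90 and the regulatory median at day 21 were above 0, and without the first sham library the regulatory median at day 90 was -0.21. The core median at day 7 was also above 0 without the first day 7 library (0.05), under upper-quartile scaling (0.06) and with the length shift removed (0.11). With that shift removed the core medians were 0.42, 0.38, 0.11, -0.27, 0.23 and -0.14 at the 6 times and the regulatory medians 0.67, 0.50, 0.53, -0.24, 0.25 and 0.16.

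**Figure D1:**
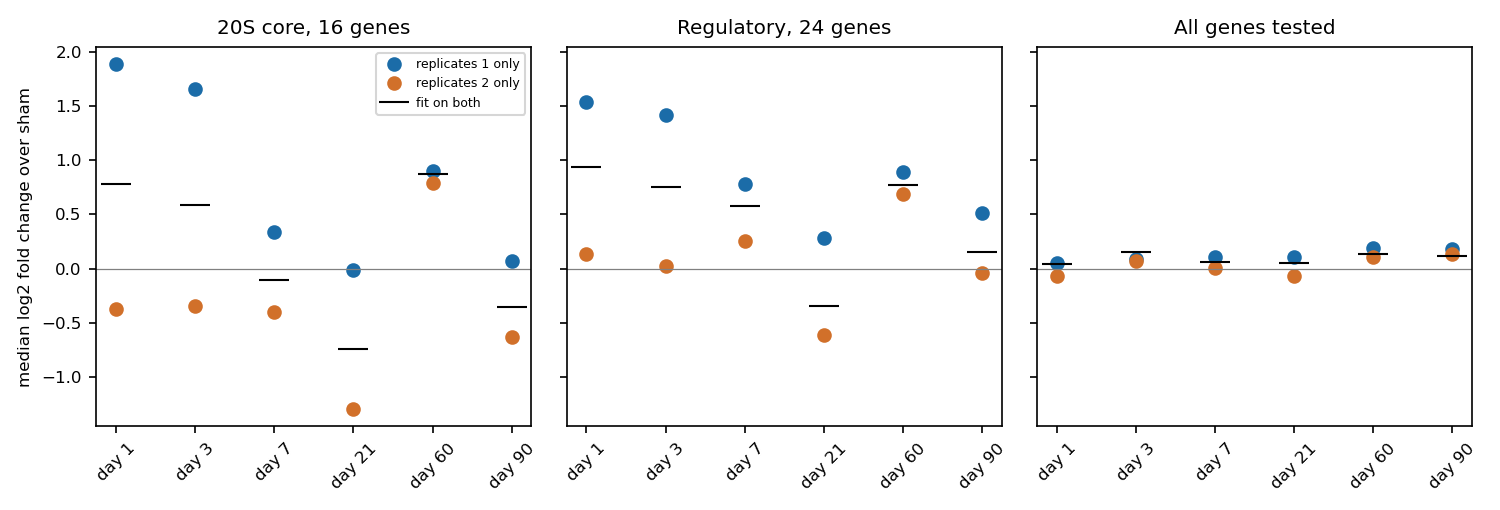
Median log2 fold change over sham of the core genes, the regulatory genes and all genes tested at each time, from the fit on both libraries (bars), from the replicates 1 alone and from the replicates 2 alone (points). The core points of days 1 and 3 lie on opposite sides of 0, at 1.88 and -0.38 for day 1, while those of day 60 lie together at 0.90 and 0.79.

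The difference between the classes within a library cancels the scaling of that library. The core mean minus the regulatory mean in log2 CPM was -0.41 and -0.25 in the sham libraries, -0.00252 and -0.62 at day 1, 0.07 and -0.67 at day 3, -0.82 and -0.73 at day 7, -0.73 and -0.72 at day 21, -0.33 and -0.03 at day 60 and -0.80 and -0.76 at day 90. At days 7, 21 and 90 both libraries lay below both sham libraries and their replicates differed by less than 0.1, while the libraries of days 1 and 3 lay on either side of the sham libraries. With the length shift removed the difference was -0.21 and -0.47 in the sham libraries, -0.33 and -0.61 at day 1, -0.32 and -0.61 at day 3, -0.55 and -0.74 at day 7, -0.45 and -0.58 at day 21, -0.39 and -0.38 at day 60 and -0.52 and -0.65 at day 90. Both libraries of days 7 and 90 again lay below both sham libraries, while those of day 21 then overlapped them. With 2 libraries against 2 an exact permutation test cannot reach 0.05, and no test was made.

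Few single members passed the test. At an edgeR quasi-likelihood adjusted p under 0.05, 1 of the 47 members passed at day 1, against 4.55% of all genes tested. At day 3 it was 1 of 47, against 8.28%, and at day 60 it was 2 of 47, against 7.85%. All of these were higher than in sham. No member passed at day 7 (12.6% of all genes), day 21 (6.44%) or day 90 (7.86%), between days 60 and 90 and days 1 and 3 (2.62%) or in the joint test of all 7 groups (7.21%). At an unadjusted p under 0.05, 17 of 47 members (36.2%) passed at day 1, against 21.8% of all genes. The counts at days 3, 7, 21, 60 and 90, between late and early times and jointly were 10, 7, 3, 11, 5, 5 and 6, against 26.2%, 29%, 24.8%, 26.9%, 26.2%, 16.3% and 24.3% of all genes. The members' share was below that of all genes in each of these comparisons except day 1. DESeq2 called 5, 5, 4, 1, 5 and 2 members at days 1, 3, 7, 21, 60 and 90, against 13.5%, 19.2%, 22.8%, 17.7%, 19.1% and 18.9% of all genes. At day 1 these were Psma8, Psmb6, Psmc1, Psmc5 and Psmd7, and at day 3 Psmb6, Psmc1, Psmc3ip, Psmc5 and Psmd7. At day 7 they were Psma8, Psmc3ip, Psmd1 and Psmd7, and at day 21 Psma8. At day 60 they were Psma8, Psmb6, Psmc5, Psmd7 and Psmf1, and at day 90 Psma8 and, as lower, Psma3. DESeq2 called 1 between late and early times (8.35%) and 7 jointly (25.1%). Limma-voom called 1, 1, 0, 0, 3 and 1 members, against 3.95%, 9.26%, 13.5%, 12.2%, 8.72% and 9.91%, with 0 between late and early times (5.1%) and 0 jointly (4.7%). With the length shift removed, edgeR called 2, 2, 6, 1, 1 and 1 members, against 6.25%, 11.3%, 16.7%, 9.32%, 9.43% and 11.1% of all genes. Psmb6 was among them at each time.

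Counted by libraries that did not overlap, both day 1 libraries exceeded both sham libraries for 21 of 47 members (44.7%), against 22.2% of all genes, and 0 members lay below, against 23.2%. Members above sham numbered 20, 14, 4, 19 and 11 at days 3, 7, 21, 60 and 90, against 28.9%, 32.1%, 27.5%, 33.9% and 36.4% of all genes. Members below sham numbered 1, 3, 9, 1 and 6 at these times, against 24.6%, 27.6%, 24.1%, 27.1% and 27.2% of all genes. At day 1 the 21 members were 6 core genes, 12 regulatory genes and 3 of neither class, and at day 21 the 9 lower ones were the core genes Psma3, Psma7, Psmb1, Psmb3 and Psmb5 and the regulatory genes Psmd10, Psmd13, Psme3 and Psme4. In all 12 stroke libraries 3 of 47 members exceeded both sham libraries, Psma8, Psmd7 and Psmf1, against 10.3% of all genes, and 0 lay below, against 10.9%.

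**Figure D2:**
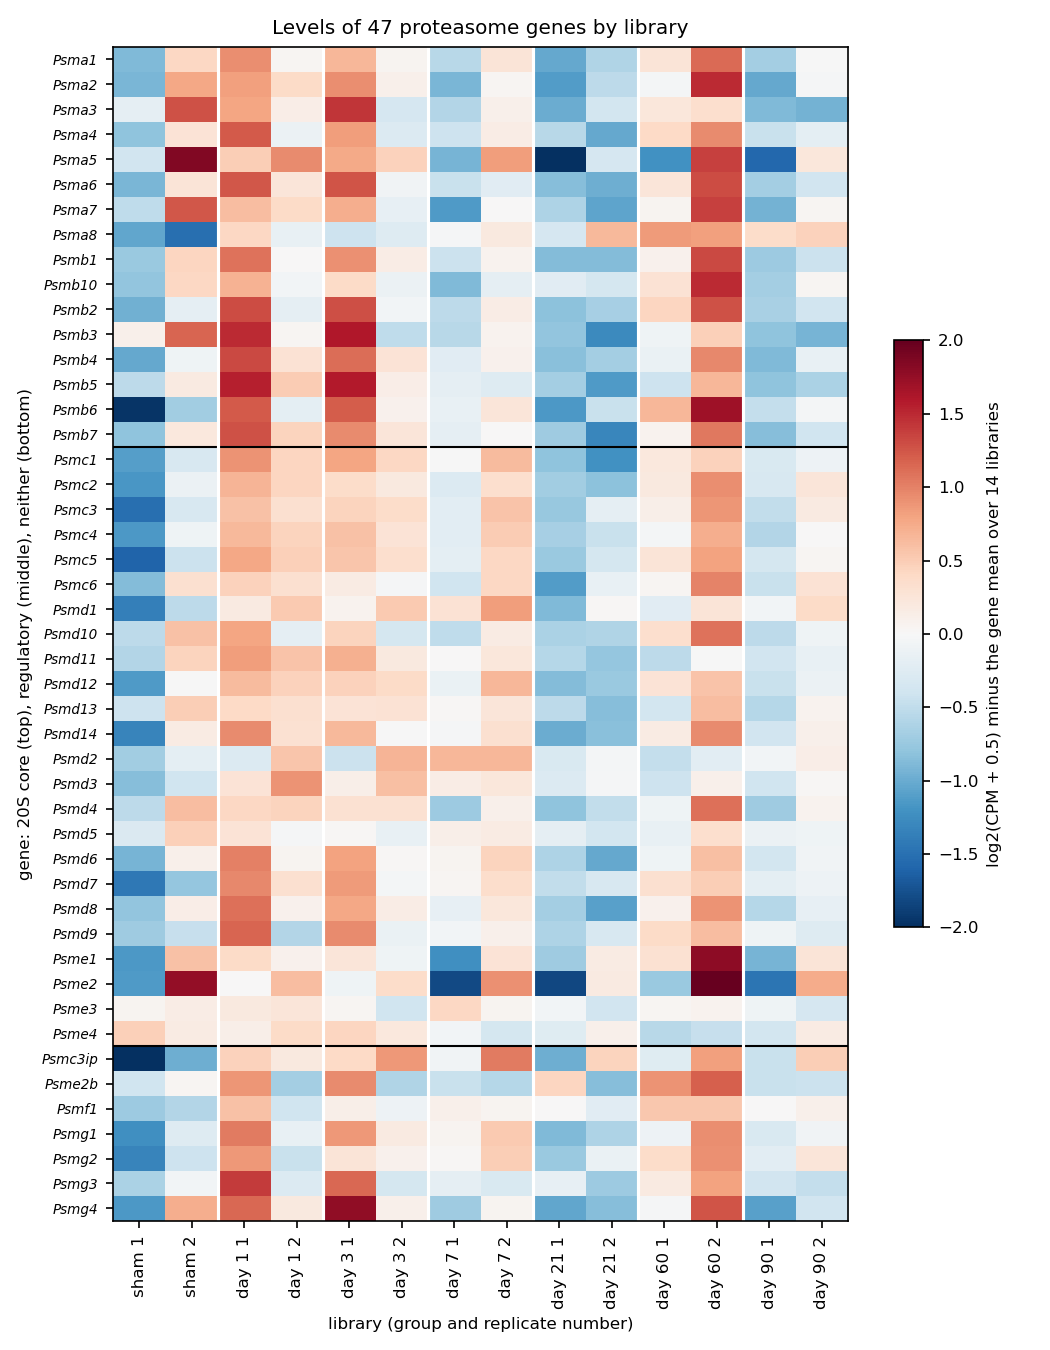
Log2(CPM + 0.5) of the 47 members in the 14 libraries, each row centred on its mean over the libraries, with the 16 core genes at the top, the 24 regulatory genes in the middle and the 7 other members at the bottom. Most rows are red in the first libraries of days 1 and 3 and the second of day 60 and blue in the first sham library and both day 21 libraries, while Psme3, Psme4 and Psmd5 are pale throughout.

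Among the genes of the catalytic beta subunits, the balance between inducible and constitutive genes differed between times. The promoters of 2 of the pairs, Psmb6 with Psmb9 and Psmb5 with Psmb8, are shown because the members of a pair had different time courses. They are the 250 bases before the transcription start as given by RefSeq on GRCm38.p6, 5′ to 3′. That build is another than that of the counts. Capitals mark matches on either strand of TGACNNNGC, the core of the antioxidant response element bound by factors of the Nfe2l family. The core of the interferon-stimulated response element, a GAAA followed after any 2 bases by another GAAA, was searched in the same way.
Psmb6, chr11:70525107-70525356, plus strand: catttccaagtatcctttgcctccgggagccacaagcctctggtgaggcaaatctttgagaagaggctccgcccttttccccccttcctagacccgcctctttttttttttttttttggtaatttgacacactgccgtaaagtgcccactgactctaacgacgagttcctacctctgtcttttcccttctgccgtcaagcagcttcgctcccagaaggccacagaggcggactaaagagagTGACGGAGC
Psmb9, chr17:34187331-34187580, minus strand: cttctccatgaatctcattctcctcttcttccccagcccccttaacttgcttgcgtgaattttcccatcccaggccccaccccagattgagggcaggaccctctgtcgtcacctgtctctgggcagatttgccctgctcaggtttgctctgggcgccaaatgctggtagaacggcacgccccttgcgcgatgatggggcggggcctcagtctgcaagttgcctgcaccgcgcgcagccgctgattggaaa
Psmb5, chr14:54617996-54618245, minus strand: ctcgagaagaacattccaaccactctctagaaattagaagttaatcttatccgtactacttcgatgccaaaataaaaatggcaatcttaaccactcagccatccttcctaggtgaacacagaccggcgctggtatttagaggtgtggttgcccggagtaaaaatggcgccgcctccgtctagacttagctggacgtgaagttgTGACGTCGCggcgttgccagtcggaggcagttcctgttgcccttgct
Psmb8, chr17:34197945-34198194, plus strand: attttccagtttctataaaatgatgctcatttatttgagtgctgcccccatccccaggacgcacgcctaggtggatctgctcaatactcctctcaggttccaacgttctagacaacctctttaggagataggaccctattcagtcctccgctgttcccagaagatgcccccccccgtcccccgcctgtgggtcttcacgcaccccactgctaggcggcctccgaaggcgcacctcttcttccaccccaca
TGACNNNGC stood in the Psmb6 and Psmb5 windows, 2 of the 12 core genes with a promoter entry (16.7%), and in 3 of 21 regulatory genes (Psmc6, Psmd9 and Psmd12). It stood in 12.8% of the 39 members with an entry, against 12% of the genes of the count table and 10.1% of 27025 promoters of all genes. The GAAA repeat stood in the windows of Psmb3, Psmd4 and Psmd9, 3 of 39 members (7.69%), against 2.78% of the genes of the count table and 3.04% of all promoters. Neither motif was found in the Psmb8, Psmb9 or Psmb10 windows, which says only that these letters are not there. Psmb7 had no promoter entry.

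Psmb6, which encodes the constitutive caspase-like subunit, was the most abundant member per kilobase of transcript, at a mean of 353 CPM per kb over the 14 libraries. Its level was 58.2 and 141 CPM in the sham libraries, 537 and 199.99 at day 1, 528 and 243 at day 3 and 207 and 269.8 at day 7. Psmb6 then had 103 and 168 CPM at day 21, 364 and 739 at day 60 and 164 and 224 at day 90. The libraries of days 1, 3, 7, 60 and 90 all exceeded both sham libraries, and those of day 21 overlapped them. It rose at day 60, with a log2 fold change of 2.46 ± 0.66 (SE, edgeR adjusted p = 0.043), while at day 1 it was 1.88 ± 0.65 (adjusted p = 0.121) and at day 3 1.95 ± 0.65 (adjusted p = 0.0848). The replicates 1 and 2 alone gave 2.64 and 2.38 at day 60. The day 60 call was kept under all 7 other settings but was lost without any 1 of 8 libraries, both of sham, day 7, day 60 and day 90, with adjusted p between 0.0618 and 0.264; over all 21 alternatives it ranged between 0.003 and 0.264. With the length shift removed, Psmb6 passed at all 6 times, with log2 fold changes of 1.35, 1.48, 1.71, 1.19, 1.85 and 1.61 in order of time and the largest adjusted p 0.0492, at day 21.

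Psmb9, the inducible gene that replaces Psmb6 and is no member, did not pass edgeR at any time, while DESeq2 called it at day 7 and jointly. Its level was 116 and 243 CPM in the sham libraries, 122 and 62.1 at day 1, 85.6 and 64.8 at day 3 and 49.6 and 75.7 at day 7. Psmb9 then had 115 and 104 CPM at day 21, 151 and 293 at day 60 and 71.6 and 105 at day 90. Its log2 fold change was -1.25 ± 0.53 at day 3 (edgeR adjusted p = 0.156) and -1.52 ± 0.53 at day 7 (adjusted p = 0.0805). The ratio of Psmb9 to Psmb6 counts was 1.99 and 1.72 in the sham libraries, 0.228 and 0.31 at day 1, 0.162 and 0.267 at day 3, 0.24 and 0.281 at day 7, 1.12 and 0.622 at day 21, 0.414 and 0.396 at day 60 and 0.436 and 0.47 at day 90. All 12 stroke libraries lay below both sham libraries, also with the length shift removed, with the lowest ratios at days 1, 3 and 7. Psmb9 overlaps Tap1 on the opposite strand, and without a stated strand setting their reads cannot be told apart there.

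Psmb5 encodes the chymotrypsin-like subunit, and 54.1% of the 50-base words of its transcript also occur in other genes, so its counts are uncertain. The gene that shares most of these words is not in the count table. Psmb5 had 44.3 and 72.6 CPM in the sham libraries, 188 and 90.7 at day 1, 194 and 70.0 at day 3 and 56.5 and 53.6 at day 7. Psmb5 then had 39.5 and 28.9 CPM at day 21, 47.6 and 101 at day 60 and 36.5 and 40.9 at day 90. Its libraries of days 21 and 90 all lay below both sham libraries. The inducible counterpart Psmb8 had 300.4 and 579.8 CPM in the sham libraries, 598 and 309 at day 1, 475 and 316 at day 3 and 254 and 349 at day 7. Psmb8 then had 423 and 326 CPM at day 21, 563 and 1039 at day 60 and 295 and 387 at day 90. For Psmb8 the sham libraries overlapped those of every time. Neither passed edgeR against sham at any time: the log2 fold change of Psmb5 was 1.25 ± 0.57 at day 1 (edgeR adjusted p = 0.226) and -0.77 ± 0.57 at day 21 (adjusted p = 0.417), and that of Psmb8 was 0.86 ± 0.52 at day 60 (adjusted p = 0.309). The ratio of Psmb8 to Psmb5 counts was 6.79 and 7.98 in the sham libraries, 3.17 and 3.41 at day 1, 2.45 and 4.51 at day 3, 4.50 and 6.52 at day 7, 10.7 and 11.3 at day 21, 11.8 and 10.3 at day 60 and 8.09 and 9.46 at day 90. Both libraries of days 1, 3 and 7 lay below both sham libraries and both libraries of days 21, 60 and 90 lay above them, at day 90 by a narrow margin (8.09 against 7.98). With the length shift removed the log2 ratio was 2.63 and 3.42 in the sham libraries, 2.12 and 1.79 at day 1, 1.93 and 2.10 at day 3, 1.81 and 2.66 at day 7, 3.04 and 3.26 at day 21, 3.58 and 3.76 at day 60 and 2.54 and 3.02 at day 90. Days 1 and 3 then still lay below both sham libraries and day 60 above them, while days 7, 21 and 90 overlapped them. Psmb8 overlaps Gm20496 on the opposite strand.

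Psmb7 encodes the trypsin-like subunit and Psmb10 the inducible subunit that replaces it. Psmb7 had 43.4 and 88.6 CPM in the sham libraries, 185 and 104 at day 1, 147 and 90.9 at day 3 and 67.5 and 76.6 at day 7. Psmb7 then had 46.7 and 30.7 CPM at day 21, 80.6 and 159 at day 60 and 42.4 and 57.7 at day 90. For Psmb7 both libraries of days 1 and 3 exceeded both sham libraries, and the other times overlapped them. Psmb10 had 98.1 and 226 CPM in the sham libraries, 275 and 164 at day 1, 223 and 157 at day 3 and 92.0 and 150.2 at day 7. Psmb10 then had 145 and 134 CPM at day 21, 209 and 478 at day 60 and 107 and 174 at day 90. For Psmb10 the sham libraries overlapped those of every time. Neither passed edgeR, Psmb7 having 1.13 ± 0.52 at day 1 (edgeR adjusted p = 0.229) and Psmb10 1.08 ± 0.56 at day 60 (adjusted p = 0.235). The ratio of Psmb10 to Psmb7 counts was 2.26 and 2.55 in the sham libraries, 1.48 and 1.57 at day 1, 1.51 and 1.73 at day 3, 1.36 and 1.96 at day 7, 3.11 and 4.36 at day 21, 2.60 and 3.00 at day 60 and 2.52 and 3.02 at day 90. Both libraries of days 1, 3 and 7 lay below both sham libraries, both libraries of days 21 and 60 lay above them, and those of day 90 overlapped them. At day 60 the margin was narrow, 2.60 against 2.55. With the length shift removed the log2 ratio was 1.17 and 1.45 in the sham libraries, 0.65 and 0.66 at day 1, 0.73 and 0.77 at day 3, 0.38 and 0.96 at day 7, 1.56 and 2.07 at day 21, 1.37 and 1.65 at day 60 and 1.23 and 1.54 at day 90. The placement was the same except for day 60, which then overlapped the sham libraries. Psmb7 overlaps Nek6 on the opposite strand. The 3 ratios were chosen after their values were seen, so they are given without a test, and the sham libraries they are set against are those with the high neutrophil and monocyte marker sums. Lymphocyte marker sums also differed between times. The sum of the 12 T and NK cell markers was 50.3 and 73.4 CPM in the sham libraries, 44.8 and 41.2 at day 1, 44.1 and 30.3 at day 3, 89.1 and 62.7 at day 7, 166 and 89.5 at day 21, 277 and 188 at day 60 and 420.0 and 338 at day 90. The sum of the 7 B cell markers in the table was 138 and 154 CPM in the sham libraries, 46.1 and 9.89 at day 1, 32.6 and 67.7 at day 3, 117 and 103 at day 7, 158 and 298 at day 21, 257 and 219 at day 60 and 451 and 433 at day 90. Both sums were higher in every library of days 21, 60 and 90 than in any library of sham or days 1, 3 and 7. The margins were narrow, 89.5 against 89.1 CPM for T and NK cells and 158 against 154 CPM for B cells. Both sums were highest at day 90. The part of these markers in the ratios was not tested.

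**Figure D3:**
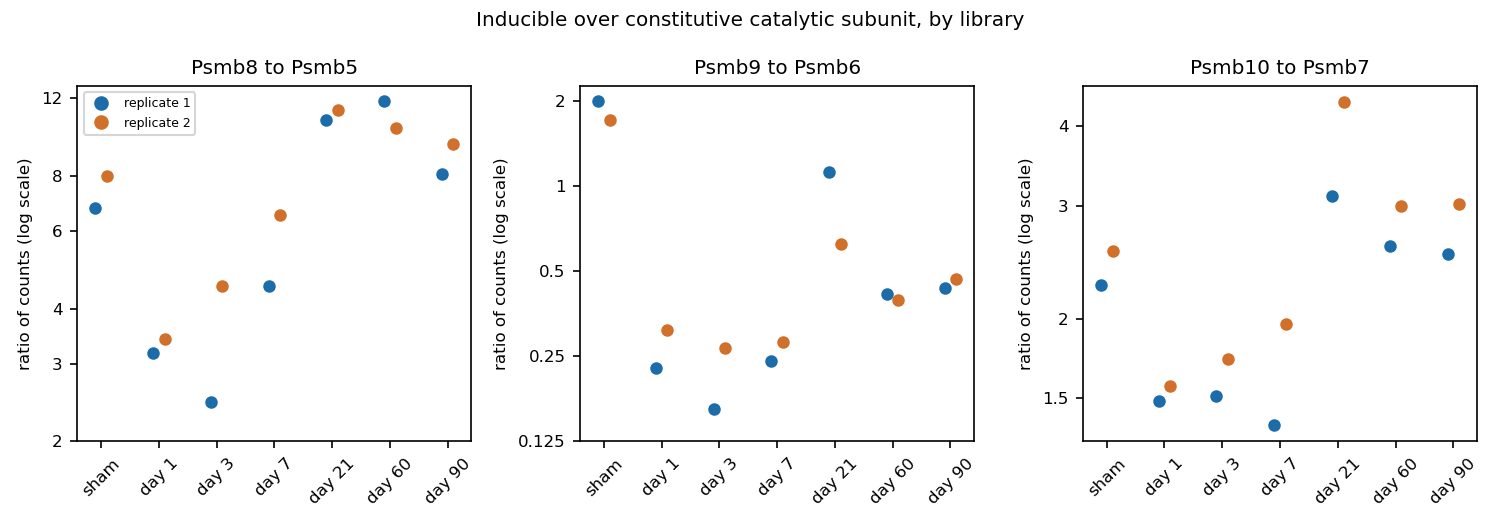
Ratio of the counts of the inducible to the constitutive gene of each catalytic pair in the 14 libraries, on a log scale, by group in order of time. For Psmb8 to Psmb5 both libraries of days 1, 3 and 7 lie below sham and those of days 21, 60 and 90 above it; for Psmb9 to Psmb6 all 12 stroke libraries lie below sham; for Psmb10 to Psmb7 days 1, 3 and 7 lie below and days 21 and 60 above. The margin above sham is narrow at day 90 for Psmb8 to Psmb5 (8.09 against 7.98) and at day 60 for Psmb10 to Psmb7 (2.60 against 2.55). With the length shift removed, which is not plotted, days 7, 21 and 90 overlap sham for Psmb8 to Psmb5 and day 60 does for Psmb10 to Psmb7.

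Among the alpha ring genes, Psma8 was the one that passed the edgeR test. It encodes an alpha subunit of testis proteasomes that takes the place of Psma7 there, and it had the lowest level per kilobase of all members, at a mean of 1.34 CPM per kb. Psma8 had 0.728 and 0.38 CPM in the sham libraries, 2.84 and 1.77 at day 1, 1.38 and 1.60 at day 3 and 1.99 and 2.37 at day 7. Psma8 then had 1.48 and 3.42 CPM at day 21, 4.05 and 3.92 at day 60 and 2.75 and 2.95 at day 90. All 12 stroke libraries exceeded both sham libraries. It rose at day 60, by 2.88 ± 0.78 on the log2 scale (SE, edgeR adjusted p = 0.0434), with 2.44 and 3.28 in the replicates 1 and 2 alone. It was also the core gene with the highest log2 fold change at days 1, 7, 21 and 90, at 2.08 ± 0.76, 2.005 ± 0.76, 2.18 ± 0.76 and 2.39 ± 0.76, with adjusted p between 0.0748 and 0.138. The day 60 call was lost with the length shift removed (2.20, adjusted p = 0.0886) and without any 1 of 10 libraries, both of sham, day 3, day 7, day 60 and day 90 (adjusted p between 0.0517 and 0.186).

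The other alpha genes did not pass edgeR in any comparison, while DESeq2 called Psma3 at day 90, as lower, and Psma6 jointly. Psma3 had 24.1 and 67.1 CPM in the sham libraries, 47.5 and 30.2 at day 1, 74.5 and 21.5 at day 3 and 18.0 and 29.6 at day 7. Psma3 then had 13.6 and 21.1 CPM at day 21, 32.1 and 34.6 at day 60 and 14.6 and 13.9 at day 90. At days 21 and 90 both libraries lay below both sham libraries, and its log2 fold change at day 90, -1.68 ± 0.63, was the lowest of the core (edgeR adjusted p = 0.122). Psma7, the ubiquitous counterpart of Psma8, had 157 and 532 CPM in the sham libraries, 344 and 294 at day 1, 370.1 and 200.04 at day 3 and 102 and 226 at day 7. Psma7 then had 146 and 108 CPM at day 21, 232 and 577 at day 60 and 116 and 229.9 at day 90. For Psma7 both libraries of day 21 lay below both sham libraries, and the other times overlapped them. It was the lowest core gene at day 7, at -1.07 ± 0.67 (adjusted p = 0.316). Psma5 had 4.85 and 24.5 CPM in the sham libraries, 9.25 and 12.8 at day 1, 11.2 and 9.14 at day 3 and 3.15 and 11.9 at day 7. Psma5 then had 0.741 and 5.02 CPM at day 21, 2.52 and 17.4 at day 60 and 1.84 and 7.64 at day 90. Its second sham library was the highest of all 14. Its log2 fold change was the lowest of the core at days 1, 3, 21 and 60, reaching -2.34 ± 1.16 at day 21 (edgeR adjusted p = 0.234). Of the words of Psma5, 54.5% occur in other genes, and the gene that shares most of them is not in the count table. Psma1, Psma2, Psma4 and Psma6 spanned 58.0 to 526 CPM over all libraries, with their highest value in the second day 60 library for Psma1, Psma2 and Psma6 and in the first day 1 library for Psma4. The structural beta genes Psmb1, Psmb2, Psmb3 and Psmb4 spanned 16.04 to 422 CPM, and Psmb3, with 55.8% of its words in other genes, lay below both sham libraries in both libraries of days 7, 21 and 90.

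**Figure D4:**
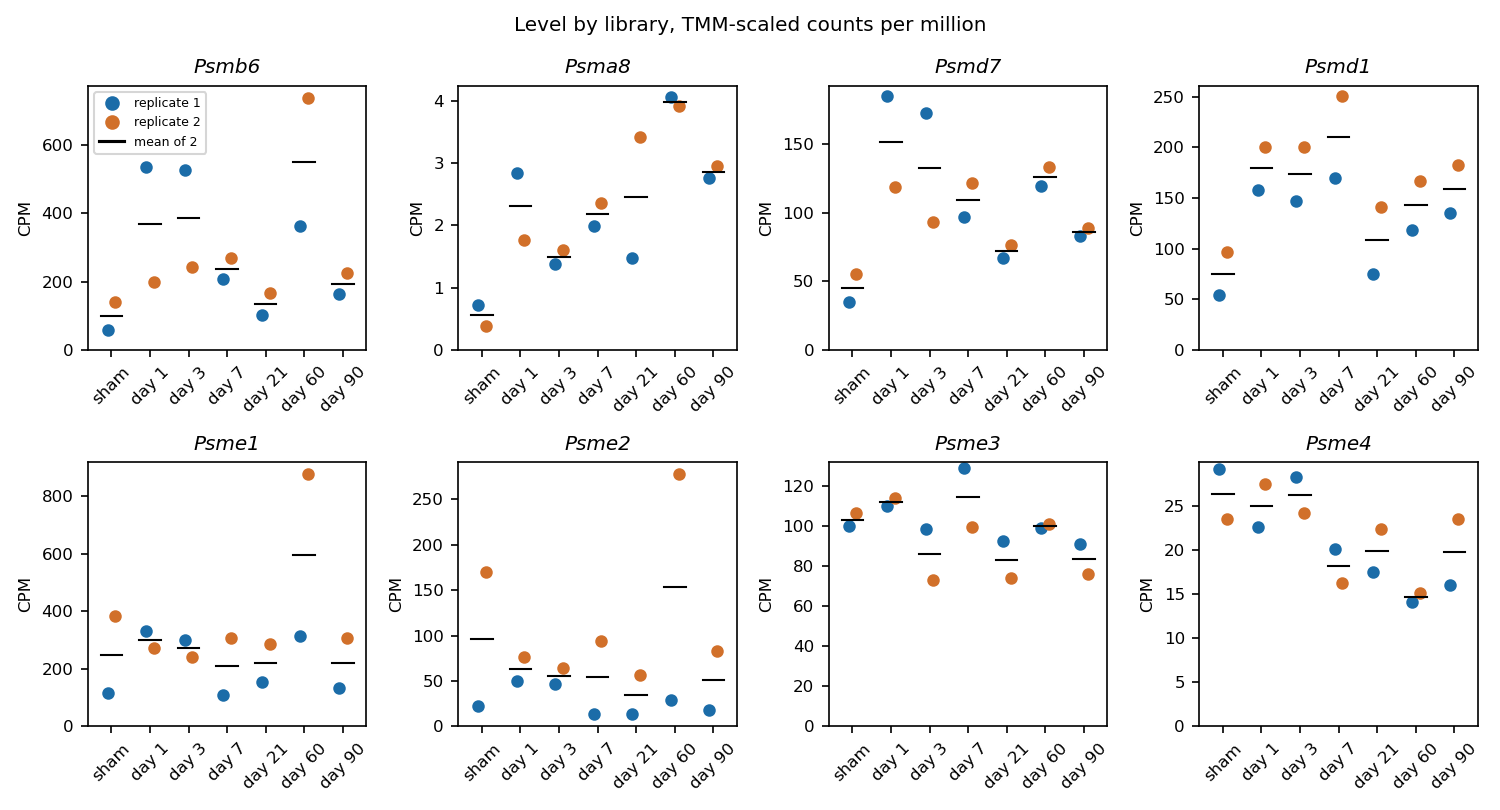
Level in CPM of 8 members in each library, with the mean of 2 libraries as a bar, by group in order of time. Psmb6, Psma8 and Psmd7 are the members that passed the edgeR test at some time; Psme1 and Psme2 are highest in the second day 60 library, at 879.6 and 278 CPM, while Psme3 stays between 73.3 and 129 CPM.

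Psmd7, a lid subunit that pairs with the deubiquitinase encoded by Psmd14, was the regulatory gene with the highest log2 fold change at days 1, 3, 21 and 60. Its level was 35.0 and 55.1 CPM in the sham libraries, 185 and 119 at day 1, 172 and 92.8 at day 3 and 97.0 and 121 at day 7. Psmd7 then had 67.2 and 76.3 CPM at day 21, 119 and 133 at day 60 and 83.3 and 88.7 at day 90. All 12 stroke libraries exceeded both sham libraries. It rose at day 1, by 1.75 ± 0.44 (SE, edgeR adjusted p = 0.046), and at day 3, by 1.56 ± 0.44 (adjusted p = 0.0497), and it was 1.48 ± 0.44 at day 60 (adjusted p = 0.0598). The replicates 1 and 2 alone gave 2.40 and 1.11 at day 1 and 2.298 and 0.751 at day 3. The day 1 call was lost without any 1 of 9 libraries, both of sham, day 7, day 60 and day 90 and the first of day 1 (adjusted p between 0.0687 and 0.275). The day 3 call was lost without any 1 of 10 libraries, both of sham, day 3, day 7, day 60 and day 90 (0.0537 to 0.259), and with no filter on low counts (0.0505). Over all 21 alternatives the adjusted p ranged between 0.00386 and 0.275 for day 1 and between 0.00979 and 0.259 for day 3.

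Psmd14 removes ubiquitin chains as substrates enter. Its level was 51.7 and 145 CPM in the sham libraries, 249.7 and 160.2 at day 1, 205 and 129 at day 3 and 128 and 162 at day 7. Psmd14 then had 65.3 and 72.4 CPM at day 21, 145 and 249 at day 60 and 99.2 and 139 at day 90. The day 1 libraries exceeded both sham libraries and the log2 fold change was 1.06 ± 0.53 (edgeR adjusted p = 0.269). Psmd1, a scaffold of the base, had 53.8 and 96.8 CPM in the sham libraries, 158 and 200.5 at day 1, 147 and 200.2 at day 3 and 170.0 and 251 at day 7. Psmd1 then had 75.2 and 141 CPM at day 21, 119 and 166 at day 60 and 135 and 183 at day 90. All libraries except the first of day 21 exceeded both sham libraries, and Psmd1 was the highest regulatory gene at day 7 (1.48 ± 0.48, adjusted p = 0.0624) and day 90 (1.08 ± 0.47, adjusted p = 0.174). Psmd1 overlaps Gm21972 on the same strand, where 8.36% of its words also occur, and Htr2b on the opposite strand. Psmd4, a ubiquitin receptor, had 131 and 288 CPM in the sham libraries, 251 and 255 at day 1, 234 and 231 at day 3 and 113 and 202 at day 7. Psmd4 then had 108 and 133 CPM at day 21, 178 and 406 at day 60 and 115 and 197 at day 90. Its stroke libraries overlapped the sham libraries at every time, and its log2 fold changes lay between -0.80 ± 0.54 at day 21 and 0.48 ± 0.53 at day 60 with adjusted p of 0.377 and 0.603.

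The lid genes Psmd11 and Psmd12, whose products sit at the contact of lid and core, did not pass edgeR in any comparison. Psmd11 had 61.8 and 127 CPM in the sham libraries, 167 and 138 at day 1, 154 and 107 at day 3 and 94.0 and 109 at day 7. Psmd11 then had 62.7 and 54.4 CPM at day 21, 64.6 and 92.8 at day 60 and 71.4 and 83.8 at day 90. The 4 libraries of days 60 and 90 all lay below the 4 of days 1 and 3. Psmd12 had 44.5 and 98.0 CPM in the sham libraries, 152 and 135 at day 1, 135 and 127 at day 3 and 89.8 and 156 at day 7. Psmd12 then had 53.4 and 58.1 CPM at day 21, 119 and 146 at day 60 and 72.1 and 90.3 at day 90. For Psmd12 both libraries of days 1, 3 and 60 exceeded both sham libraries, and the other times overlapped them. Its day 60 libraries overlapped those of days 1 and 3. Among the remaining Psmd genes Psmd2, a scaffold of the base, was highest in both libraries of day 7 and the second libraries of days 1 and 3, at 345 to 378 CPM, and had r = -0.0868 with the mean of the core genes over the 14 libraries. Psmd5, a chaperone of base assembly, kept within 41.7 to 74.7 CPM.

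The ATPase genes Psmc1 to Psmc6 had r of 0.885 to 0.983 with the mean of the other regulatory genes over the 14 libraries. Psmc4, with the highest of these, had 70.7 and 149 CPM in the sham libraries, 248 and 216 at day 1, 238 and 191 at day 3 and 137 and 224 at day 7. Psmc4 then had 99.4 and 116 CPM at day 21, 154 and 263 at day 60 and 105 and 159 at day 90. Both libraries of days 1, 3 and 60 exceeded both sham libraries, and its log2 fold change was 1.08 ± 0.48 at day 1 (edgeR adjusted p = 0.22) and 0.93 ± 0.48 at day 60 (adjusted p = 0.239). At days 1, 3 and 60 both libraries also exceeded both sham libraries for Psmc1, Psmc2, Psmc3 and Psmc5, and for Psmc6 they did so at no time. The ATPase gene levels ran between 39.6 CPM for Psmc6 and 383 CPM for Psmc3. Psmc3 overlaps Slc39a13 on the opposite strand.

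The 4 activator genes differed among themselves. Psme1 and Psme2 encode the interferon-inducible activator of the cytosol. Psme1 had 115 and 385 CPM in the sham libraries, 331 and 272 at day 1, 301 and 241 at day 3 and 109 and 308 at day 7. Psme1 then had 155 and 287 CPM at day 21, 315 and 879.6 at day 60 and 133 and 306 at day 90. For Psme1 the sham libraries overlapped those of every time. Psme2 had 22.6 and 170.0 CPM in the sham libraries, 50.3 and 76.6 at day 1, 46.6 and 64.0 at day 3 and 13.9 and 94.5 at day 7. Psme2 then had 13.7 and 56.2 CPM at day 21, 29.4 and 278 at day 60 and 17.8 and 83.5 at day 90. For Psme2 the sham libraries overlapped those of every time. In all 7 groups Psme2 was higher in replicate 2 than in replicate 1, and 54.9% of its words occur in Psme2b, which is counted separately, so their reads cannot be told apart in those stretches. Psme2 was the regulatory gene with the lowest log2 fold change at days 1, 3, 7, 21 and 90, reaching -1.46 ± 1.29 at day 21 (edgeR adjusted p = 0.512), and the highest between late and early times. Psme1 had 1.26 ± 0.73 at day 60 (adjusted p = 0.287) and overlaps Emc9 on the opposite strand.

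Psme3, a nuclear activator, and Psme4, an activator known for histone degradation, varied least among the regulatory genes, together with Psmd5. Psme3 had 99.98 and 107 CPM in the sham libraries, 110.1 and 114 at day 1, 98.8 and 73.3 at day 3 and 129 and 99.8 at day 7. Psme3 then had 92.7 and 74.1 CPM at day 21, 99.1 and 101 at day 60 and 91.3 and 76.2 at day 90. For Psme3 both libraries of day 1 exceeded both sham libraries and both libraries of days 3, 21 and 90 lay below both sham libraries, and the other times overlapped them. Psme4 had 29.2 and 23.5 CPM in the sham libraries, 22.6 and 27.5 at day 1, 28.3 and 24.2 at day 3 and 20.1 and 16.3 at day 7. Psme4 then had 17.6 and 22.4 CPM at day 21, 14.2 and 15.1 at day 60 and 16.1 and 23.5 at day 90. Psme4 lay below both sham libraries in both libraries of days 7, 21, 60 and 90, at day 90 by a narrow margin, and was the lowest regulatory gene at day 60 (-0.85 ± 0.39, edgeR adjusted p = 0.19). The median log2 fold change of the 4 Psme genes was 0.02, -0.14, -0.40, -0.36, 0.31 and -0.36 at the 6 times. For the 20 Psmc and Psmd genes it was 1.03, 0.82, 0.62, -0.35, 0.85 and 0.27, nearly the same as for the Psme genes at day 21 and higher at the other times. The Psme transcripts include the shortest and the longest of the regulatory class, at 962 and 6491 nt.

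Of the 7 members in neither class, Psmf1 encodes an inhibitor of the core and Psmg1 to Psmg4 encode assembly chaperones. Psmf1 had 19.7 and 22.0 CPM in the sham libraries, 49.9 and 24.9 at day 1, 35.9 and 30.7 at day 3 and 35.4 and 34.2 at day 7. Psmf1 then had 33.4 and 28.2 CPM at day 21, 48.1 and 48.1 at day 60 and 33.3 and 35.4 at day 90. All 12 stroke libraries exceeded both sham libraries, and the log2 fold change was 1.21 ± 0.40 at day 60 (edgeR adjusted p = 0.0856). Psmg1 had 6.73 and 13.6 CPM in the sham libraries, 34.2 and 14.7 at day 1, 30.5 and 18.7 at day 3 and 17.1 and 23.8 at day 7. Psmg1 then had 8.68 and 10.47 CPM at day 21, 15.3 and 31.8 at day 60 and 13.1 and 15.6 at day 90. Its libraries of days 1, 3, 7 and 60 exceeded both sham libraries. Psmg2, Psmg3 and Psmg4 spanned 3.395 to 35.1 CPM. Psmc3ip, which matches the symbol rule but encodes a cofactor of meiotic recombination and no subunit, spanned 0.182 to 5.08 CPM, and Psme2b, the near copy of Psme2, spanned 53.6 to 224 CPM.

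Between late and early times, the mean of days 60 and 90 against the mean of days 1 and 3, no member passed edgeR or limma-voom, and DESeq2 called Psmb5, as lower. The median log2 fold change was -0.52 for the core, -0.33 for the regulatory class and -0.02 for all genes. The replicates 1 alone gave -1.41 and -0.73 for the core and the regulatory class, and the replicates 2 alone gave 0.43 and 0.12, so the sign was opposite. Psmb5 had the lowest log2 fold change of the core, -1.34 ± 0.41 (edgeR adjusted p = 0.114), and Psmd11 the lowest of the regulatory class, -0.85 ± 0.31 (adjusted p = 0.184). All 4 late libraries lay below all 4 early libraries for 2 members, Psmd3 and Psmd11, against 4.52% of all genes, and above them for 0, against 8.77%. The late libraries also had higher lymphocyte marker sums than the early ones. For T and NK cells these were 188 to 420 against 30.3 to 44.8 CPM, and for B cells 219 to 451 against 9.89 to 67.7 CPM. The part of these markers in the late against early results was not tested.

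Subunits of one particle had unequal transcript levels. Per kilobase, Psmb6 (353 CPM per kb), Psma7 (284), Psme1 (266) and Psma1 (219.9) were the highest on average and Psma8 (1.34) and Psme4 (3.31) the lowest of the subunit genes. Within a library the SD of log2 CPM per kb over the 14 constitutive core genes, without Psma8 and Psmb10, was 1.26 to 2.13, and over the 20 Psmc and Psmd genes it was 0.97 to 1.28, larger for the core in all 14 libraries. Lengths were those of the principal transcript in GENCODE M21, which may not be the isoform that these cells make. Among the 14 constitutive core genes, Psma5 (7.04 CPM per kb) and Psma3 (11.1) had the lowest means. Of their words, 54.5% and 22% occur in other genes, and of those of Psmb3 and Psmb5, 55.8% and 54.1%. Among the Psmc and Psmd genes the highest such share was 25.6%, for Psmd2. The counts of these genes are uncertain, and the SD without them was not tested. The 20 Psmc and Psmd genes include Psmd5, Psmd9 and Psmd10, chaperones of base assembly. These had the lowest means of the 20, at 12.4, 11.1 and 32.6 CPM per kb, so that SD is not one of particle subunits alone.

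Among the 7557 other genes whose log2 CPM averaged 3 or more, the 5 whose log2 CPM had the highest r with the core mean over the 14 libraries were Cox5a (0.978), Mea1 (0.975), AI413582 (0.974), Ndufb8 and Apopt1 (both 0.973). All 5 have short transcripts, of 645 to 1065 nt. Among the members, Psmb1 followed the mean of the other core genes most closely (r = 0.984), and Psma8 (r = 0.0326), Psme4 (0.0272) and Psmd2 (-0.0868) least.

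A list chosen by role held 47 symbols of other ubiquitin and proteasome pathway genes, some of them older and newer names of the same gene. Of these symbols, 43 were in the table and tested. At an edgeR adjusted p under 0.05, 1 passed, as lower, at days 1, 3 and 21, against 4.55%, 8.28% and 6.44% of all genes. At days 7 and 60 there were 2, 1 of them higher and 1 lower, against 12.6% and 7.85%, and at day 90 there were 2, both lower, against 7.86%. Between late and early times 0 passed, against 2.62%, with 4 at an unadjusted p under 0.05 (16.3% of all genes), 2 by DESeq2 (8.35%) and 0 by limma-voom (5.1%). Ngly1, a cytosolic glycanase that activates the transcription factor encoded by Nfe2l1, accounted for the lower call at each of the 6 times. Its level was 131 and 178 CPM in the sham libraries, 24.1 and 40.9 at day 1, 27.7 and 34.6 at day 3 and 29.6 and 31.5 at day 7. Ngly1 then had 41.2 and 37.7 CPM at day 21, 36.2 and 43.3 at day 60 and 43.3 and 49.6 at day 90. All 12 stroke libraries lay below both sham libraries, and it fell at each time. Its log2 fold changes were -2.25 ± 0.40, -2.31 ± 0.40, -2.34 ± 0.40, -1.97 ± 0.40, -1.96 ± 0.40 and -1.73 ± 0.39 (SE) in order of time, with edgeR adjusted p between 0.00583 and 0.023. Ngly1 also passed jointly (adjusted p = 0.0123). Leaving out the second sham library ended its call at every time but day 7 and leaving out the first ended it at days 21, 60 and 90; leaving out a library of the time itself ended it at day 1 (replicate 1), day 7 (replicate 1), day 21 (replicate 2), day 60 and day 90 (either), with adjusted p of 0.05002 to 0.187 in these fits.

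Usp14, a deubiquitinase bound to the regulatory particle, had 26.0 and 45.8 CPM in the sham libraries, 116 and 91.6 at day 1, 100.3 and 112 at day 3 and 105 and 141 at day 7. Usp14 then had 44.4 and 98.5 CPM at day 21, 99.3 and 135 at day 60 and 81.0 and 104 at day 90. For Usp14 both libraries of days 1, 3, 7, 60 and 90 exceeded both sham libraries, and the other times overlapped them. It rose at day 7, by 1.77 ± 0.48 (SE, edgeR adjusted p = 0.0332), and at day 60, by 1.70 ± 0.48 (adjusted p = 0.04998). Both calls were lost without either sham library, either library of the time itself or the first of day 60, and with the length shift removed, where the log2 fold change was 1.78 at day 7 (adjusted p = 0.0511) and 1.98 at day 60 (adjusted p = 0.0501). The call of day 60 was also lost without either library of days 3, 7 or 90 or with no filter on low counts, with adjusted p up to 0.19 at day 7 and 0.299 at day 60. Shfm1, which encodes a small lid subunit under a symbol outside the rule, had 125.1 and 328 CPM in the sham libraries, 205 and 110.2 at day 1, 359.6 and 82.8 at day 3 and 42.1 and 85.2 at day 7. Shfm1 then had 38.9 and 32.5 CPM at day 21, 70.5 and 154 at day 60 and 24.1 and 39.6 at day 90. For Shfm1 both libraries of days 7, 21 and 90 lay below both sham libraries, and the other times overlapped them. It fell by 2.83 ± 0.77 at day 90 (SE, adjusted p = 0.0436), a call lost without any 1 of 8 libraries, both of sham, day 7, day 60 and day 90 (adjusted p up to 0.248).

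The regulators of subunit transcription did not pass the adjusted edgeR test at any time. Nfe2l1, which raises proteasome genes when the proteasome is impaired, had 49.96 and 17.2 CPM in the sham libraries, 31.6 and 52.2 at day 1, 38.9 and 50.1 at day 3 and 71.1 and 32.7 at day 7. Nfe2l1 then had 90.8 and 54.1 CPM at day 21, 47.2 and 26.8 at day 60 and 68.2 and 48.6 at day 90. For Nfe2l1 both libraries of day 21 exceeded both sham libraries, and the other times overlapped them. Nfe2l2, a regulator of antioxidant genes, had 337 and 313 CPM in the sham libraries, 389 and 319.9 at day 1, 451 and 291 at day 3 and 241 and 264 at day 7. Nfe2l2 then had 301 and 299.8 CPM at day 21, 696 and 549 at day 60 and 408 and 322 at day 90. For Nfe2l2 both libraries of day 60 exceeded both sham libraries and both libraries of days 7 and 21 lay below both sham libraries, and the other times overlapped them. The log2 fold change of Nfe2l1 at day 21 was 1.11 ± 0.59 (edgeR adjusted p = 0.263), and that of Nfe2l2 at day 60 was 0.94 ± 0.40 (adjusted p = 0.157). Pomp, a chaperone of core maturation, had 85.2 and 212 CPM in the sham libraries, 293 and 135 at day 1, 246 and 118 at day 3 and 84.8 and 189 at day 7. Pomp then had 81.8 and 96.3 CPM at day 21, 217 and 372 at day 60 and 86.9 and 134 at day 90. For Pomp both libraries of day 60 exceeded both sham libraries, and the other times overlapped them. Its log2 fold change at day 60 was 0.98 ± 0.62 (edgeR adjusted p = 0.329).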

How the data were processed

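Read counts per gene were deposited by the authors as raw counts for 14 libraries; per the submitters' processing notes, Bowtie2 2.3.4.2, HTSeq 0.6.1 and mm9 were used, and the sources used here do not give the strand setting or annotation. Groups came from the labels. The members and gene lists were chosen with earlier results of these data known. Of 14084 genes, 13861 passed filterByExpr and were fitted with edgeR 4.0.16 in R 4.3.3 (TMM, quasi-likelihood test, 1 model of 7 groups, 7 residual degrees of freedom, Benjamini-Hochberg over all genes tested). CPM values are TMM-scaled, and log2 CPM used a prior count of 2. The alternatives were DESeq2 1.42.0, limma-voom 3.58.1, upper-quartile scaling, no filter, a replicate block, leaving out each library or the day 21 group and, added after the data were seen, a loess shift by transcript length (GENCODE M21, 14048 genes with a length). The edgeR, DESeq2 and limma-voom fits were run on simulated counts of the day 7 comparison. The simulated libraries spread less than those of the data, whose common biological coefficient of variation was 0.639. The simulation therefore does not show how the fits do at the spread of these libraries. Described in every library were a panel of 17 members chosen by role, the members called, the highest and lowest core and regulatory member of each comparison, Psmb8, Psmb9, Nfe2l1, Nfe2l2, Pomp and up to 4 called pathway genes per comparison, with the 5 genes most like the core mean named. Promoters are from RefSeq GRCm38.p6, which had an entry for 39 members.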

Additional observations from a re-analysis of the deposited data

Results flagged for a closer look

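The Psmb8 to Psmb5 and Psmb10 to Psmb7 ratios lay on opposite sides of both sham libraries at different times, while Psmb9 to Psmb6 lay below both in all 12 stroke libraries. For Psmb8 to Psmb5, both day 60 libraries lay above and both day 1 libraries below both sham libraries, with group means 1.75 apart on the log2 scale and 1.72 apart with the length shift removed. For Psmb10 to Psmb7, both day 21 libraries lay above and both day 1 libraries below, 1.27 apart and 1.16 with the length shift removed. These differences were not tested, and groups of 2 libraries are too small for a search for single libraries that stand apart.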

How the results depend on the processing

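Members called by edgeR numbered 1, 1, 0, 0, 2 and 0 at days 1, 3, 7, 21, 60 and 90, and pathway genes 1, 1, 2, 1, 2 and 2. Upper-quartile scaling gave 2 members at day 7, 2 pathway genes at day 3 and a core median of 0.96 at day 60; it moved the median of all genes by 0.104 to 0.216 from day 3 on, limma-voom by -0.115 and the length shift by 0.123 at day 21. No filter gave 0 members at day 3 and 1 pathway gene at day 60. DESeq2 gave 5, 5, 4, 1, 5 and 2 members, 1 late against early and 7 jointly, with 4, 5, 5, 3 and 4 pathway genes at days 1, 3, 7, 21 and 90, 2 late against early and 5 jointly, and a core median of 0.79 at day 60. Limma-voom gave 1 member at day 90 and 2 pathway genes at day 21. The length shift gave 2, 2, 6, 1, 1 and 1 members, 2, 2, 4, 2 and 1 pathway genes at days 1 to 60, 1 late against early and 3 jointly, core and regulatory medians of 0.23 and 0.25 at day 60, core minus regulatory differences of -0.65, -0.52 and -0.59 at days 7, 21 and 90, log2 Psmb8 to Psmb5 ratios of 3.02 in sham and 1.95, 3.15, 3.67 and 2.78 at days 1, 21, 60 and 90, so that day 90 was below sham and not above it, and log2 Psmb9 to Psmb6 ratios of 1.09 in sham and -2.12, -1.18 and -1.49 at days 7, 60 and 90. Without the day 21 group there were 1 member at day 7, 1 at day 90 and 2 pathway genes at day 3. The core median at day 60 within the replicates 2 was 0.79. The constitutive core against Psmc and Psmd genes alone differed by 0.059 in sham and -0.66, -0.62 and -0.70 at days 7, 21 and 90. The causes of these changes were not tested.

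The replicate numbers pair nothing by the labels: 20 of 21 pairs of groups had deviations correlated over 0.1 (0.071 to 0.677), and 14 of 14 libraries correlated best with their own number, a hint from the data and not the design. With the replicate block there were 5, 4, 3, 7 and 2 members at days 1, 3, 7, 60 and 90, against 8.62%, 14.4%, 19.96%, 14.1% and 14.5% of all genes, those of days 7 and 90 being Psmc3ip, Psmd1 and Psmd7 and Psma8 and Psmd1, and 2 and 3 pathway genes at days 1 and 3. Leaving out 1 library at a time gave 0 to 1 members at days 1, 3, 7, 21 and 90 and 0 to 4 at day 60, and 0 to 1, 0 to 3, 0 to 2, 0 to 2, 0 to 2 and 0 to 3 pathway genes at the 6 times and 0 to 2 jointly. The core medians ranged over 0.18 to 1.52, 0.15 to 1.30, -0.50 to 0.61, -1.10 to 0.02, 0.32 to 1.57 and -0.74 to 0.42 at the 6 times and -0.85 to -0.18 late against early. The regulatory medians ranged over 0.51 to 1.48, 0.39 to 1.26, 0.18 to 1.12, -0.62 to 0.32, 0.29 to 1.37 and -0.21 to 0.79, and -0.49 to -0.16. No called value changed direction in these settings, and 303 of 322 medians moved by less than the spread between replicates. That spread was itself wide, at a mean log2 difference of 0.848 for the core genes. Several class medians changed sign, among them the core medians of days 1 and 3 within the replicates 2. The 2 libraries per group limit every comparison.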
